A study of Homo sapiens with 6 samples.

Results

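The 10 genes described here are feedback and output genes of the ERK pathway: the phosphatases DUSP1, DUSP4, DUSP5 and DUSP6, the inhibitors SPRY2, SPRY4 and SPRED1, the pleckstrin homology-like gene PHLDA1, and the ETS transcription factors ETV4 and ETV5. They were chosen by name, as genes that ERK activity induces, with earlier results of these data known. Their counts are therefore a description and no test of the set. All 10 were found among the 57500 genes of the count files. RNA was sequenced from HepG2 cells, an established human hepatocarcinoma line of wild-type genotype, that had been kept for 24 h in glycine (10 mM) or in vehicle, with 3 libraries per group. The study grew these cells in medium with serum, and the standard medium itself contains glycine, so that the vehicle group was not free of it. In bulk RNA, fewer cells that express a gene and less of its RNA per cell cannot be told apart. The comparison asks which of these transcripts differed after glycine.

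ERK is the last kinase of the cascade that runs from growth factor receptors through RAS, RAF and MEK. Active ERK phosphorylates transcription factors, which switch on early genes, and part of those genes encode inhibitors of the cascade itself. Dual-specificity phosphatases remove the phosphates from ERK, Sprouty and Spred proteins act further up, at the level of RAS and RAF, and ETV4 and ETV5 are factors whose transcripts follow ERK activity closely. In liver cells this pathway takes part in proliferation and in the response to fibroblast and epidermal growth factors. HepG2 cells carry an activated NRAS allele.

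The libraries held between 31795489 and 58815986 counts, and glycine replicate 2 was the deepest. The mitochondrial share was between 1.94% and 2.82%. Levels are given as CPM, counts scaled to a common library size, after scaling by the trimmed mean of M values, and 1 count was worth between 0.0171 and 0.0313 CPM. Of the 8 hepatocyte markers examined, all were expressed, and their summed level ran from 16700 to 22200 CPM with vehicle and from 15200 to 17800 CPM with glycine. All 8 had a negative log2 change, and 2 of them were called lower, TTR (-0.32, edgeR adjusted p = 0.00921) and APOA1 (-0.26, edgeR adjusted p = 0.0483). Fibroblast and stellate markers summed to at most 31.1 CPM in a vehicle library and 22.1 CPM in a glycine library, and endothelial markers to at most 5.76 and 5.26 CPM. Within these lists the calls went both ways: COL1A1 rose from 2.15 ± 0.251 to 4.38 ± 0.598 CPM (SD, n = 3), while PDGFRB fell from 26.9 ± 2.15 to 17 ± 0.997 CPM and VWF from 0.584 ± 0.138 to 0.258 ± 0.0234 CPM. Leukocyte markers summed to between 2130 and 2330 CPM with vehicle and between 1690 and 1850 CPM with glycine, nearly all of it LYZ, which fell. The 2 other leukocyte markers tested rose, CD68 from 1.33 ± 0.0859 to 2.07 ± 0.133 CPM and CD79A from 0.879 ± 0.154 to 1.56 ± 0.459 CPM. PTPRC, DCN and COL3A1 did not exceed 0.086, 0.0313 and 0.188 CPM in any library, and CD3E was at 0. Their part in the results below was not tested.

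Of the 10 genes, 2 rose after glycine and 0 fell (edgeR quasi-likelihood test, adjusted p under 0.05 over 15492 genes). The 2 that rose were DUSP5 and DUSP4, nuclear phosphatases. Over all tested genes, 6.71% were called higher and 6.54% lower. Without adjustment (p under 0.05), 5 of the 10 genes were higher and 0 lower, where 2214 of all 15492 tested genes were higher and 2011 lower. Of the 10, limma-voom called 2 higher and 0 lower, and over all genes 1005 and 998. DESeq2 called 3 of the 10 higher and 0 lower, and over all genes 907 and 1053. All 10 passed the filter on low counts, and their summed share of a library was between 0.0906% and 0.0989%. The median log2 change of the 10 was 0.12, beside 0.00 over all tested genes, with 6 above 0 and 4 below.

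The levels of the 2 groups did not overlap for 4 of the 10, DUSP4, DUSP5, SPRY4 and SPRED1, all in the higher direction. Among all tested genes that share was 17.2% in the higher and 14.4% in the lower direction. The replicates of a group varied by between 2.01% and 18.0% (coefficient of variation) with vehicle and between 2.57% and 21.9% with glycine. DUSP4, the gene with the lowest level, had the largest variation in both groups.

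**Figure D1:**
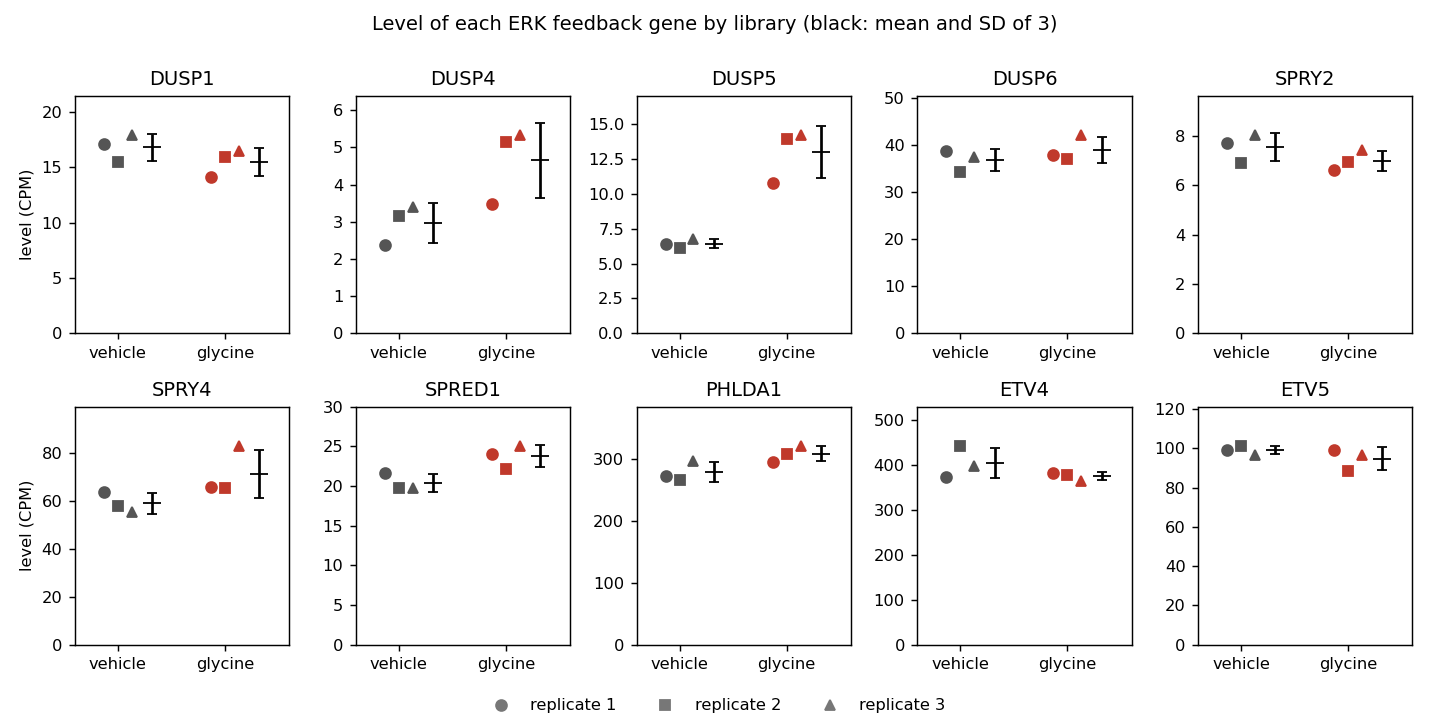
Level of each of the 10 genes in CPM (linear axes from 0) in the 3 vehicle (grey) and 3 glycine (red) libraries, where each point is a library and the black bar is the mean with the SD of 3 libraries. DUSP5 lies between 6.14 and 6.73 CPM with vehicle and between 10.8 and 14.2 CPM with glycine, while ETV4, ETV5, DUSP1, DUSP6, PHLDA1 and SPRY2 overlap between the groups.

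DUSP5 (ENSG00000138166, GRCh38 chromosome 10, 110497838 to 110511544) encodes a nuclear phosphatase that acts on ERK with little action on other MAP kinases. Its level was 6.42, 6.14 and 6.73 CPM in the vehicle libraries and 10.8, 13.9 and 14.2 CPM in the glycine libraries. Every glycine library lay above every vehicle library, and glycine replicate 1 was the lowest of its group. The vehicle mean was 6.43 ± 0.298 CPM (SD, n = 3) and the glycine mean 13 ± 1.87 CPM (SD, n = 3). The log2 change (glycine minus vehicle, with its standard error) was 1.02 ± 0.112, or 2.03-fold, with an edgeR adjusted p = 5.93e-05. The 95% interval of the change ran from 0.78 to 1.26. No other gene covers its exons. The call held in 14 of 14 alternative fits.

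DUSP4 (ENSG00000120875, chromosome 8, 29333064 to 29350668) encodes a nuclear phosphatase that ERK activity induces and that can also act on JNK. It was the least abundant of the 10, with between 83 and 301 counts in a library. The vehicle libraries held 2.37, 3.15 and 3.39 CPM and the glycine libraries 3.48, 5.14 and 5.33 CPM. Glycine replicate 1 stood only just above vehicle replicate 3, and the other 2 glycine libraries were clearly higher. The log2 change was 0.66 ± 0.176 (edgeR adjusted p = 0.0252), with a 95% interval from 0.28 to 1.04. This call was lost without vehicle replicate 1 (0.51, edgeR adjusted p = 0.107), without glycine replicate 2 (0.58, edgeR adjusted p = 0.0984) and without glycine replicate 3 (0.55, edgeR adjusted p = 0.1). Over all genes, the same fits called 590, 617 and 587 genes higher, against 1040 with every library.

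DUSP6 (ENSG00000139318, chromosome 12, 89347232 to 89353271), the cytoplasmic ERK phosphatase and a widely used readout of ERK activity, was not called. Its level was 38.7, 34.3 and 37.4 CPM with vehicle and 37.9, 37.0 and 42.1 CPM with glycine. The groups overlapped, and glycine replicate 3 was the highest library. The log2 change was 0.08, with a 95% interval from -0.08 to 0.245 (edgeR adjusted p = 0.509). An antisense gene (ENSG00000274021) covers 40.5% of its exon length, and that gene held between 3 and 7 counts in a library, against at least 1195 for DUSP6. With the strand setting not given, these low counts do not show how the overlap affected the DUSP6 count.

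DUSP1 (ENSG00000120129, chromosome 5, 172768090 to 172771195) encodes a nuclear phosphatase that acts on p38 and JNK as well as ERK. It was at 17.1, 15.5 and 17.9 CPM in the vehicle libraries and at 14.1, 15.9 and 16.5 CPM in the glycine libraries. The ranges overlapped, and the log2 change was -0.11 with a 95% interval from -0.30 to 0.08 (edgeR adjusted p = 0.462).

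Within a library, the ratio of DUSP5 to DUSP6 does not depend on how libraries are scaled. For each 100 DUSP6 counts there were 16.6, 17.9 and 18.0 DUSP5 counts in the vehicle libraries and 28.5, 37.6 and 33.6 in the glycine libraries. DUSP4 gave 6.12, 9.21 and 9.08 counts for each 100 DUSP6 counts with vehicle and 9.18, 13.9 and 12.6 with glycine. The DUSP5 ratio separated the groups, whereas the DUSP4 ratio of glycine replicate 1 lay within the range of the vehicle libraries.

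**Figure D2:**
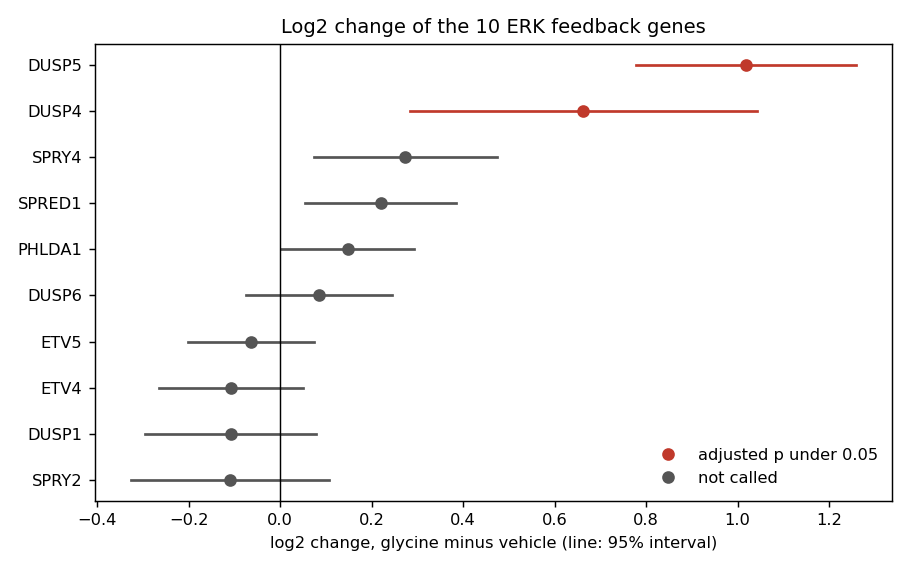
Log2 change (glycine minus vehicle) of each of the 10 genes with its 95% interval, from the edgeR fit over all genes, where red marks an adjusted p under 0.05 and grey marks genes that were not called. DUSP5 (1.02) and DUSP4 (0.66) are in red, and the intervals of SPRY4, SPRED1 and PHLDA1 lie above 0 without passing the adjusted threshold.

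The Sprouty and Spred inhibitors gave 0 calls among 3 genes with edgeR and with limma-voom, and 1 with DESeq2, for SPRY4. Without adjustment (p under 0.05), 2 were higher and 0 lower. SPRY4 (ENSG00000187678, chromosome 5, 142310427 to 142326455), an inhibitor of receptor signalling to RAS, held 63.9, 57.7 and 55.2 CPM with vehicle and 65.7, 65.4 and 82.8 CPM with glycine. Glycine replicate 3 stood apart, and the other 2 glycine libraries lay just above vehicle replicate 1. The log2 change was 0.27 ± 0.0924 (edgeR adjusted p = 0.0691). It was 0.14 (edgeR adjusted p = 0.321) without glycine replicate 3. SPRY4 passed the threshold with the DESeq2 Wald test (DESeq2 adjusted p = 0.0488) and with no filter on low counts (edgeR adjusted p = 0.00543).

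SPRED1 (ENSG00000166068, chromosome 15, 38252326 to 38357249) encodes the protein that brings neurofibromin, a RAS inactivator, to the membrane. It was measured at 21.7, 19.7 and 19.7 CPM in the vehicle libraries and at 24.1, 22.2 and 25.0 CPM in the glycine libraries. The groups did not overlap, but the lowest glycine library was close to the highest vehicle library. The log2 change was 0.22 ± 0.0767 (edgeR adjusted p = 0.0784), and SPRED1 was called in 0 of 14 alternative fits.

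SPRY2 (ENSG00000136158, chromosome 13, 80335976 to 80340951), a close relative of SPRY4, was at 7.74, 6.91 and 8.04 CPM with vehicle and at 6.61, 6.97 and 7.42 CPM with glycine. These ranges overlapped, and the log2 change was -0.11 with a 95% interval from -0.33 to 0.11 (edgeR adjusted p = 0.529). SPRY4 counts for each 100 SPRY2 counts were 826, 836 and 687 with vehicle and 993, 938 and 1117 with glycine, so that the ratio of these relatives was higher in every glycine library.

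PHLDA1 (ENSG00000139289, chromosome 12, 76025447 to 76033932) is used as a transcript marker of MEK and ERK activity. It was at 273, 266 and 297 CPM with vehicle and at 296, 308 and 321 CPM with glycine. Vehicle replicate 3 and glycine replicate 1 were at nearly the same level. The log2 change was 0.15 ± 0.0672, with an unadjusted p of 0.0465 and an edgeR adjusted p of 0.174. Other genes cover 16.5% of its exon length, and these held at most 6 counts in a library, with the same limit as for DUSP6.

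ETV4 and ETV5 encode ETS factors of the PEA3 group, whose targets include genes of growth and migration. ETV4 (ENSG00000175832, chromosome 17, 43527844 to 43579620) was the most abundant of the 10, at 374, 441 and 397 CPM with vehicle and 382, 378 and 364 CPM with glycine. Its log2 change was -0.11, with a 95% interval from -0.26 to 0.05 (edgeR adjusted p = 0.374). ETV5 (ENSG00000244405, chromosome 3, 186046308 to 186110318) held 99.3, 101 and 96.8 CPM with vehicle and 99.3, 88.3 and 96.7 CPM with glycine, a log2 difference of -0.06 with a 95% interval from -0.20 to 0.07 (edgeR adjusted p = 0.571). The groups overlapped for both factors. DHX8 covers 1.89% of the exon length of ETV4 and DGKG 2.83% of that of ETV5. There were between 377 and 438 ETV4 counts for each 100 ETV5 counts with vehicle and between 376 and 429 with glycine.

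Levels per kilobase of exon ordered the 10 genes in the vehicle libraries. The full exon length was used, including bases that other genes cover, as for DUSP6 and PHLDA1. ETV4 was the highest at 112 ± 9.44 CPM per kb (SD, n = 3), followed by PHLDA1 at 34.5 ± 2, ETV5 at 17.1 ± 0.343 and SPRY4 at 9.94 ± 0.75 CPM per kb. DUSP1 at 8.32 ± 0.608 and DUSP6 at 7.94 ± 0.492 CPM per kb did not differ beyond their spread. SPRY2, SPRED1 and DUSP5 formed another such group, at 2.49, 2.47 and 2.46 CPM per kb, and DUSP4 was the lowest at 0.41 ± 0.0738 CPM per kb. With glycine, DUSP5 stood at 4.96 ± 0.715 CPM per kb, above SPRY2 at 2.30 ± 0.133 and SPRED1 at 2.88 ± 0.173 CPM per kb.

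RefSeq promoter sequences (GRCh38.p14) were matched for 6 of the 10 genes and not for DUSP4, DUSP5, ETV4 and ETV5. The 250 bases before each start were searched on both strands for the cyclic AMP response element TGACGTCA, the AP-1 motif TGANTCA, the ETS motif CCGGAA and the serum response element, none of which overlapped another in the promoters printed. These motifs were found in 1.65%, 6.57%, 14.5% and 1.16% of 35116 promoters. DUSP1 and SPRY2 are shown for the 2 kinds of motif found among the genes that were not called. PHLDA1 also held CCGGAA, beginning 89 bases before its start, while DUSP6, SPRY4, SPRED1 and the other SPRY2 promoters held none of these motifs. For PHLDA1, DUSP6, SPRY4, SPRED1 and the other SPRY2 promoters, the RefSeq start lies inside the gene span given above. Their windows are therefore within that span, and the bases before the whole span were not searched. The DUSP1 promoter (chr5:172771196-172771445, minus strand) held TGACGTCA, in capitals, beginning 125 bases before the start, and the first SPRY2 promoter (chr13:80341127-80341376, minus strand) held CCGGAA, in capitals, beginning 142 bases before it. Such a match is a description of the letters, and no binding was measured.
DUSP1: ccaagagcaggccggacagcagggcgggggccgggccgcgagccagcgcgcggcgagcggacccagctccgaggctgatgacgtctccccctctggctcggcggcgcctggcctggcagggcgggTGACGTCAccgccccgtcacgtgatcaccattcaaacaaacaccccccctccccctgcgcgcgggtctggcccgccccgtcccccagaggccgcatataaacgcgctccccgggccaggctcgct
SPRY2: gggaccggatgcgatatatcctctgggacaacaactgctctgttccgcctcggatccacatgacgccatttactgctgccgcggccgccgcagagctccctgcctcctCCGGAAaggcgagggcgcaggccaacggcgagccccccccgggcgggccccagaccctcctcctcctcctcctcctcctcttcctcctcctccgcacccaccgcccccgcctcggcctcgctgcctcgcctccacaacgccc

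The genes around the 10 were read from lists of ligands, receptors, cascade kinases, other inhibitors and target transcripts, 124 genes in all, of which 108 were tested. Of these, 22 were higher and 16 lower after glycine (edgeR adjusted p under 0.05), or 20.4% and 14.8%, against 6.71% and 6.54% over all tested genes. The lists were drawn up with earlier results of these data known, so these shares describe the lists and do not test them. Without adjustment (p under 0.05), 30 of the 108 were higher and 22 lower, against 2214 and 2011 of all 15492 tested genes. These shares over all tested genes are the background for each list below. The median log2 change of the 108 was -0.01. The calls differed between lists: target transcripts were called higher only, and receptors and other dual-specificity phosphatases were called lower only. Ligands of the epidermal growth factor receptor gave calls both ways, 2 higher and 1 lower among 4 tested genes.

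**Figure D3:**
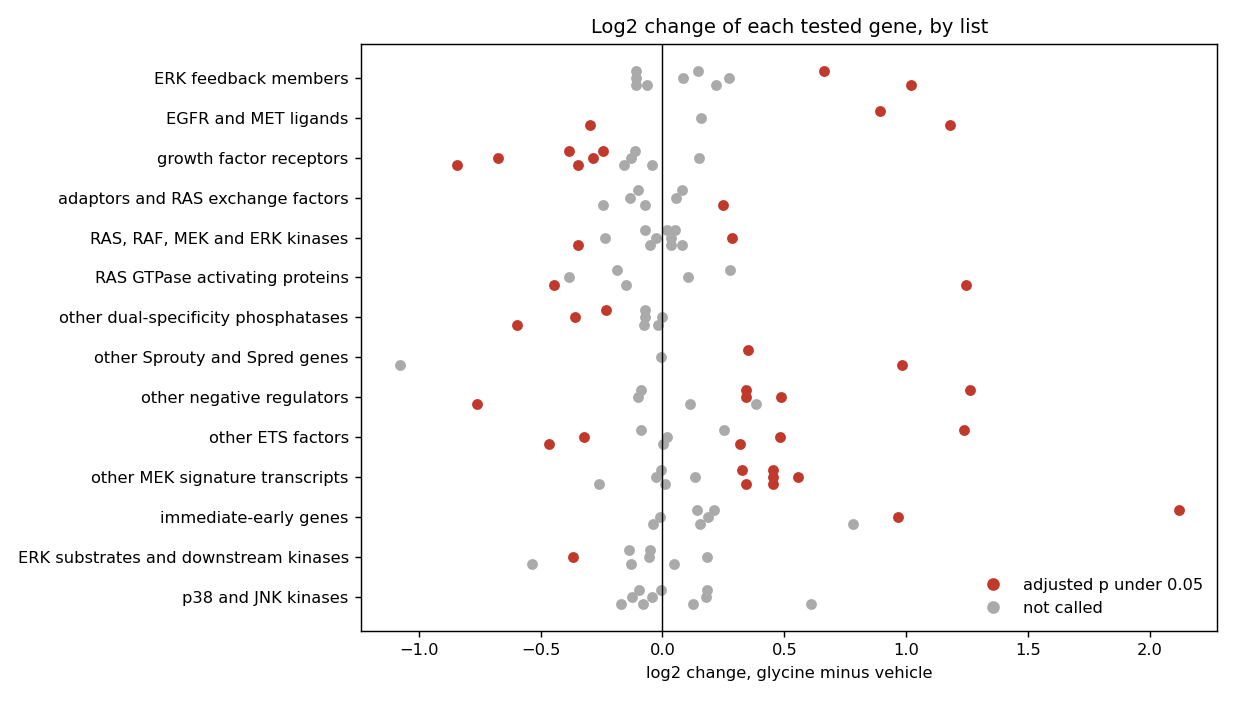
Log2 change (glycine minus vehicle) of each tested gene of the ERK feedback set and of the related lists, 1 line of points per list, where red marks an adjusted p under 0.05 and the vertical position within a line has no meaning. Of 11 receptors, 6 are red and below 0, and of 11 other transcripts of MEK activity signatures, 6 are red and above 0.

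Among the ligands of EGFR and MET, 2 of 4 tested genes rose and 1 fell. AREG, amphiregulin, was at 9.22, 8.31 and 9.60 CPM with vehicle and at 15.4, 16.7 and 18.2 CPM with glycine. These ranges were far apart, and the log2 change was 0.89 ± 0.0926 (edgeR adjusted p = 3.47e-05). EREG, epiregulin, was scarce in both groups, between 0.529 and 0.831 CPM with vehicle and between 1.2 and 1.87 CPM with glycine (log2 change 1.18 ± 0.246, edgeR adjusted p = 0.00691). TGFA went the other way, from 28 ± 2.41 to 22.8 ± 1.53 CPM (SD, n = 3), with a log2 difference of -0.30 (edgeR adjusted p = 0.0295). The TGFA call was lost in 3 of 14 alternative fits. All 5 FGF ligands on the list, FGF19 and FGF21 among them, were too low to test, and a difference in them was not detectable at this depth.

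Of the named genes with a matched promoter, DUSP1, AREG and GPR3 held TGACGTCA. In GPR3, called higher below, it began 36 bases before the start. The AREG promoter is shown because AREG rose while DUSP1, which also holds TGACGTCA, was not called. In the 250 bases before the start (chr4:74444886-74445135, plus strand), the capitals mark CCGGAA, beginning 236 bases before the start, and TGACGTCA, beginning 65 bases before it.
AREG: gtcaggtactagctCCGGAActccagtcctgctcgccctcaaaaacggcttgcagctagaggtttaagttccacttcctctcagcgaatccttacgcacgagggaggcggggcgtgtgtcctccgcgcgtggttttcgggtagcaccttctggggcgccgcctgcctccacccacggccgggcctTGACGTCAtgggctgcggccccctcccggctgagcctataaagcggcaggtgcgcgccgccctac

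Of the 11 growth factor receptors, all tested, 6 fell and 0 rose. At an unadjusted p under 0.05 7 were lower and 0 higher, and DESeq2 and limma-voom each called 6 lower and 0 higher. KLB, β-klotho, the co-receptor through which FGF19 and FGF21 act on hepatocytes, was at 279, 271 and 260 CPM with vehicle and at 157, 141 and 155 CPM with glycine, a log2 difference of -0.84 ± 0.0655 (edgeR adjusted p = 3.62e-06). IGF1R, the receptor of insulin-like growth factor, went from between 148 and 170 CPM to between 95 and 105 CPM (log2 change -0.68, edgeR adjusted p = 3.23e-05). ERBB2 (-0.35, edgeR adjusted p = 0.00309) and FGFR1 (-0.29, edgeR adjusted p = 0.00897) fell by less. EGFR, the receptor of AREG and EREG, was at 48.6, 50.5 and 39.5 CPM with vehicle and at 45.3, 43.1 and 46.3 CPM with glycine, with a log2 difference of -0.04 (edgeR adjusted p = 0.803).

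Of the 11 genes of the cascade itself (RAS, RAF, MEK and ERK), 1 rose and 1 fell, or 9.09% each way, against 6.71% and 6.54% over all tested genes, and the median absolute log2 change was 0.05, beside 0.14 over all tested genes. MAP2K2, which encodes MEK2, was at 254, 305 and 289 CPM with vehicle and at 222, 234 and 210 CPM with glycine (log2 change -0.35, edgeR adjusted p = 0.00956). HRAS was at 33.9, 35.5 and 38.9 CPM with vehicle and 43.5, 47.5 and 41.0 CPM with glycine (log2 change 0.29, edgeR adjusted p = 0.0261), and this call was lost in 4 of 14 alternative fits. Among 7 tested adaptors and RAS exchange factors, the adaptor SHC1 alone was called, with a log2 difference of 0.25 (edgeR adjusted p = 0.0354), and it kept the call in 9 of 14 alternative fits.

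The relatives of the feedback genes did not move as a block. Of 8 other dual-specificity phosphatases tested, 3 fell and 0 rose, and at an unadjusted p under 0.05 the counts were also 3 and 0, as they were with DESeq2 and with limma-voom. DUSP9, an ERK phosphatase, was the most abundant phosphatase of the list at 365 CPM per kb with vehicle, against 8.32 for DUSP1. It held 1020, 924 and 1090 CPM with vehicle and 760, 798 and 810 CPM with glycine, a log2 difference of -0.36 ± 0.0783 (edgeR adjusted p = 0.00869). DUSP10, which acts on p38 and JNK, fell from between 4.37 and 5.28 CPM to between 2.63 and 3.65 CPM (log2 change -0.60, edgeR adjusted p = 0.0145), and the call was lost in 2 of 14 alternative fits. DUSP22 had a log2 difference of -0.23 (edgeR adjusted p = 0.0292), and the call was lost in 6 of 14 alternative fits, the replicate block among them (edgeR adjusted p = 0.0618).

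Of the 4 other Sprouty and Spred genes, 2 rose and 0 fell. At an unadjusted p under 0.05, 2 were higher and 1 lower, and DESeq2 and limma-voom called 2 higher and 0 lower. The lower gene was SPRY3 (log2 change -1.08, edgeR adjusted p = 0.0757). Its groups did not overlap, but it held only between 4 and 21 counts in a library. SPRED3 was at 1.68, 2.06 and 1.17 CPM with vehicle and at 3.16, 3.32 and 3.22 CPM with glycine, a log2 difference of 0.98 ± 0.18 (edgeR adjusted p = 0.00299). SPRY1 was at 22.6, 18.2 and 21.8 CPM with vehicle and at 24.3, 25.7 and 29.8 CPM with glycine (log2 change 0.35, edgeR adjusted p = 0.0295), and lost its call in 3 of 14 alternative fits.

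Among 9 other negative regulators of receptor and ERK signalling, 4 rose and 1 fell. SOCS3, an inhibitor of cytokine receptors, rose from between 0.714 and 0.975 CPM to between 1.82 and 2.07 CPM (log2 change 1.26 ± 0.194, edgeR adjusted p = 0.000848). ERRFI1, an inhibitor of EGFR, was at 134, 110 and 130 CPM with vehicle and at 151, 160 and 162 CPM with glycine (log2 change 0.34, edgeR adjusted p = 0.00942). PHLDA2, a relative of PHLDA1, had a log2 difference of 0.49 (edgeR adjusted p = 0.0226), which was lost in 3 of 14 alternative fits. PEBP1, which encodes an inhibitor of RAF, fell from 1050, 986 and 1160 CPM to 599, 650 and 640 CPM, a log2 difference of -0.76 ± 0.0792 (edgeR adjusted p = 3.64e-05). Of 7 genes for RAS GTPase activating proteins, which switch RAS off, DAB2IP fell (log2 change -0.45, edgeR adjusted p = 0.000517) and RASA3 rose (1.24, edgeR adjusted p = 0.0137). RASA3 did not exceed 1.52 CPM in any library, and its call was lost in 2 of the 13 alternative fits that tested it.

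Among 9 other ETS factors tested, 3 rose and 2 fell, while ETV1, the third gene of the PEA3 group, was too low to test. ETS1 was at 0.771, 1.12 and 0.751 CPM with vehicle and at 2.26, 2 and 2.01 CPM with glycine, a log2 difference of 1.24 ± 0.197 (edgeR adjusted p = 0.00114). ELK3, a partner of the serum response factor, rose from 20.8 ± 1.27 to 29 ± 2.16 CPM (SD, n = 3, log2 change 0.48, edgeR adjusted p = 0.00129), and ETS2 had a log2 difference of 0.32 (edgeR adjusted p = 0.0153), lost in 1 of 14 alternative fits. ETV6, a repressor, fell from 11.8 ± 1.19 to 8.55 ± 0.186 CPM (SD, n = 3, log2 change -0.47, edgeR adjusted p = 0.00568).

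Of 11 tested further transcripts that signatures of MEK activity use, 6 rose and 0 fell. At an unadjusted p under 0.05 the counts were 6 and 1, and DESeq2 and limma-voom each called 6 higher and 0 lower. FOSL1, an AP-1 subunit, was at 19.6, 19.6 and 19.1 CPM with vehicle and at 28.8, 28.6 and 28.4 CPM with glycine, with almost no spread within a group (log2 change 0.56 ± 0.066, edgeR adjusted p = 0.000106). CCND1, cyclin D1, which drives entry into the cell cycle, was at 473, 488 and 467 CPM with vehicle and at 597, 590 and 602 CPM with glycine (log2 change 0.33, edgeR adjusted p = 0.00467). IER2 had a log2 difference of 0.45 (edgeR adjusted p = 0.00294), with another gene over 30.8% of its exon length. GPR3 also had a log2 difference of 0.45 (edgeR adjusted p = 0.032), which was lost in 4 of 14 alternative fits. MYC, EPHA2 and KLF4 had log2 changes of -0.02, -0.01 and 0.01 (edgeR adjusted p = 0.889, 0.977 and 0.988).

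Of 9 tested immediate-early genes, 2 rose and 0 fell, and at an unadjusted p under 0.05 4 were higher and 0 lower. DESeq2 and limma-voom called the same numbers as edgeR, 2 and 0. EGR1 was at 13.4, 15.2 and 12.5 CPM with vehicle and at 24.1, 25.9 and 30.1 CPM with glycine, a log2 difference of 0.97 ± 0.0979 (edgeR adjusted p = 2.8e-05). EGR3 was scarce, at most 0.258 CPM with vehicle and at least 0.837 CPM with glycine (log2 change 2.12, edgeR adjusted p = 0.000588). FOS and FOSB stayed under 1 CPM in every library, with log2 changes of 0.21 and -0.04 (edgeR adjusted p = 0.701 and 0.941). The EGR1 promoter (chr5:138465229-138465478, plus strand) is shown because it held 2 serum response elements, in capitals, beginning 105 and 83 bases before the start, which none of the promoters of the 6 matched feedback genes did.
EGR1: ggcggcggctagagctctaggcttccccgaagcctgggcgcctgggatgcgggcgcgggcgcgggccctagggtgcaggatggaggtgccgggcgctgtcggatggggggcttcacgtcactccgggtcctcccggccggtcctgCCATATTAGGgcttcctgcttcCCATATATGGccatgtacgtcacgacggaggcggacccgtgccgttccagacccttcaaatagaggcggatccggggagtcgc

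Among the kinases below and beside ERK, RPS6KA3, an ERK-activated ribosomal S6 kinase, was the 1 of 8 tested substrates and downstream kinases that was called. It fell from between 575 and 663 CPM to between 450 and 500 CPM (log2 change -0.37, edgeR adjusted p = 0.00669). Of 10 tested p38 and JNK kinases, 0 were called higher and 0 lower with edgeR, DESeq2 or limma-voom. Without adjustment (p under 0.05), where 2214 of all 15492 tested genes were higher and 2011 lower, 3 of these kinases were higher and 0 lower. The most abundant of them, MAP2K3, had a log2 difference of -0.04 (edgeR adjusted p = 0.716).

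**Figure D4:**
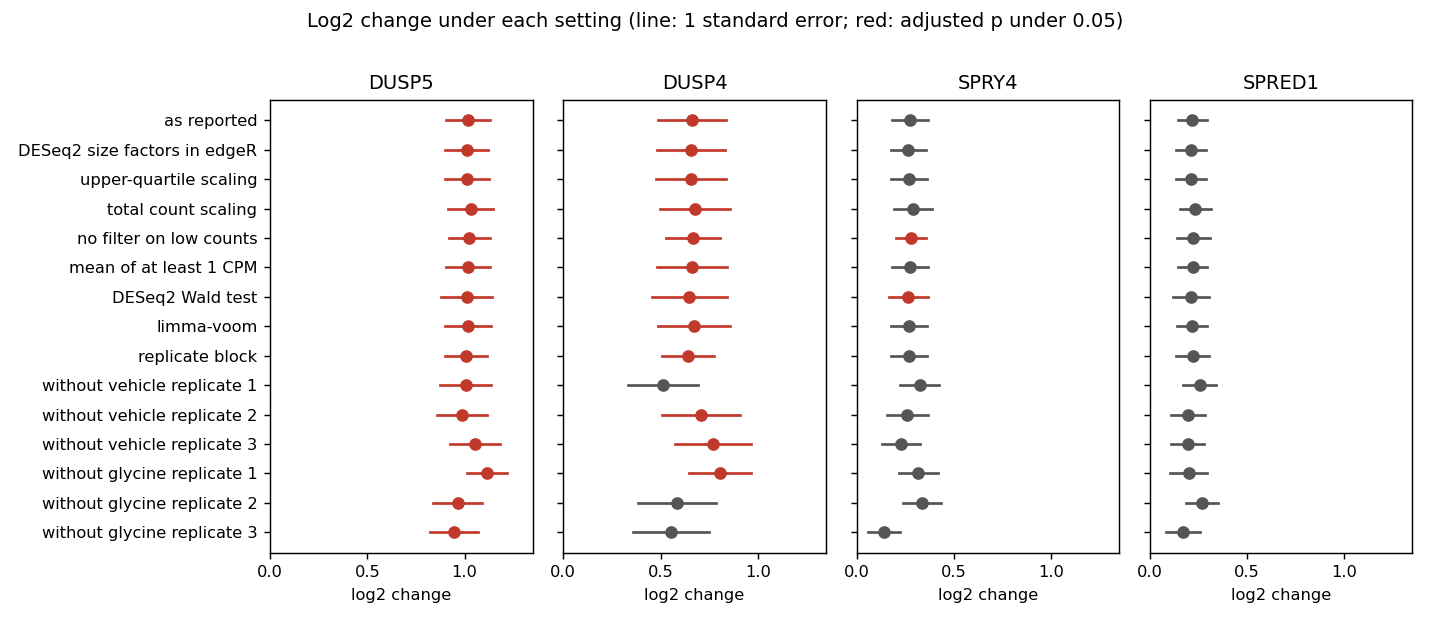
Log2 change of DUSP5, DUSP4, SPRY4 and SPRED1 as reported and under each of the 14 alternative fits, with 1 standard error, where red marks an adjusted p under 0.05 and grey marks fits without a call. DUSP5 is red in every line, DUSP4 is grey in 3 of the fits that leave out a library, SPRY4 is red in 2 fits, and SPRED1 is grey throughout.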

How the data were processed

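The authors deposited raw counts per gene, as whole numbers, in 1 file for each library. Per the labels, the submitters' processing notes name Trimmomatic 0.36, STAR 2.5.2b, featureCounts, Subread 1.5.2 and GRCh38. The strand setting and the annotation release are not given in the sources used here, so reads of a gene and its antisense partner may not be separated. Of the 57500 genes, 56898 were in GENCODE 29, which gave symbols, and the gene ends were identical for 54773.

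Counts were tested with the edgeR 4.0.16 quasi-likelihood test in R 4.3.3 (two-sided, group alone), after the edgeR expression filter (minimum count 10, minimum total 15) and scaling by the trimmed mean of M values. Benjamini-Hochberg adjustment was over 15492 genes, and the threshold was 0.05. The s.e. is the log2 change divided by the square root of F, and 95% intervals use the degrees of freedom of the test. In a simulation of the glycine and vehicle libraries (15492 genes, 200 of them given a log2 change of 1), 187 of the 200 were recovered with 8 false calls. Every simulated gene had the same biological coefficient of variation, 7.29%, so this recovery does not cover smaller changes or more variable genes. Replicates differed by more than sampling noise (chi-square per degree of freedom between 7.61 and 29.6). The labels call the replicates independent, and the study describes them as biological replicates, a term it uses for different experimental days. The value of 1 count covers counting error only.

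The 10 genes and the lists were chosen with earlier results of these data known. All 10 were named, with at most the 4 smallest p-values past the threshold in each list, or the most abundant gene where none passed. Others (the marker genes, EGFR, SPRY3, MYC, EPHA2, KLF4, FOS and FOSB) were named after their values were seen. Alternatives were 3 other scalings, 2 other filters, DESeq2 1.42.0, limma 3.58.1 with voom, a replicate block, and leaving out each of the 6 libraries.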

Additional observations from a re-analysis of the deposited data

How the results depend on the processing

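With 14 alternative fits for each of the 10 feedback genes, 135 of 140 values kept their direction and their side of the threshold, 3 lost a call (DUSP4), 2 gained one (SPRY4) and 0 changed sign. The number of the 10 called higher was between 1 and 2 when a library was left out, and was 3 with DESeq2 and with no filter on low counts, while 0 were called lower in every alternative. Leaving out a library gave from 13 to 19 of the other pathway genes called higher and from 11 to 18 called lower, against 22 and 16. The 13 was without glycine replicate 3. Over all genes, these fits called from 587 to 926 higher and from 655 to 1010 lower, against 1040 and 1013, with fewer samples. Of the 460 values of the other named genes, 426 were on the same side, 33 lost a call and 1 changed sign: MAP2K3, never called, ran from -0.0754 (without vehicle replicate 1) to 0.0076 (without vehicle replicate 3). The median log2 change of all genes was 0.02 under total count scaling, which called 55.9% of the changed genes higher, against 50.7%.

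The labels do not say which vehicle and glycine libraries shared a day. Libraries with the same number, taken as deviations from the mean of their group, had correlations between -0.058 and -0.003, and those with different numbers between -0.198 and 0.214, so the numbers were not taken to pair the libraries, and no library correlated best with its own number. With the replicate number as a block, 2 of the 10 genes were called higher and 0 lower. DUSP22 was the 1 named gene that lost its call (edgeR adjusted p = 0.0618). This block follows the numbers, which the correlations above do not mark as pairs, so it does not show the result of a true pairing.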
